A study of Mus musculus with 34 samples.

Results

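Bone marrow monocytes cultured with supernatant of LLC tumor cells were compared with untreated monocytes from the same kind of culture. The libraries were chosen by their titles and treatment labels, which gave 3 libraries of LLC supernatant and 4 of control culture, 7 of the 34 libraries in the series. LLC is a Lewis lung carcinoma line of the mouse, and its supernatant is the medium taken off the growing tumor cells. All 7 came from the bone marrow of C57/Bl6 mice and measured polyadenylated RNA. The LLC supernatant libraries are labelled Ly6C+ CD88+ Sca1-, the surface phenotype that the series names TuMon2, and the control libraries are labelled Ly6C+ and untreated, with no CD88 or Sca1 entry. The labels give neither the amount of supernatant nor the time in culture, and cell sorting is named for tumor monocyte subsets and tumor macrophages without a word on cultured cells. Another 3 groups serve as points of reference: 3 libraries of bone marrow monocytes given supernatant of MC38, a colon adenocarcinoma line, and labelled Ly6C+ CD88+ Sca1+, 4 libraries of TuMon2 monocytes sorted as Ly6C+ CD88+ Sca1- from LLC tumors in mice, and 4 of Ly6C+ monocytes from the spleens of mice with LLC tumors. Whether replicates were different animals or cultures is not in the labels, and the p-values therefore measure only the spread between these samples, which may be technical.

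Ly6C+ monocytes are short-lived cells made in the bone marrow from granulocyte and monocyte progenitors. They enter inflamed tissue and tumors, where many mature into macrophages, cells that take up dead cells and debris, digest them in lysosomes, remodel the matrix and recruit other leukocytes. Tumor cells release soluble factors that act on monocytes, and medium conditioned by tumor cells is a common way to expose monocytes to such factors outside an animal. CD88, encoded by C5ar1, is the receptor of the complement fragment C5a, and Spp1 encodes osteopontin, a secreted glycoprotein of macrophages and bone.

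Estimated counts per library ran from 13047724 to 26966603, and 14054 to 15521 genes had counts. Control replicate 2 had the lowest total and the most genes. It held transcripts foreign to monocytes: 20 muscle genes summed to 7.48 to 7.70 CPM (counts scaled to a common library total) after LLC supernatant, to 259.7 CPM in control replicate 2 and to 5.87 to 8.71 CPM in the other 3 control libraries. The 19 fibroblast genes summed to 280.5 CPM in control replicate 2 and to 17.8 to 22.1 CPM in the other control libraries, the 13 epithelial genes to 111.0 CPM against 3.46 to 4.14 CPM, and 4 Y-linked genes to 28.85 CPM against at most 0.420 CPM. Results for single genes are therefore given with and without this library wherever the call, the direction or the size of a change depended on it. Lists are given both ways only in some cases.

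The genes of the labelled surface antigens and the markers of the comparison come first. C5ar1 (Entrez Gene ID 12273, chr7:16246743-16259540 of GRCm38.p6) was at 639, 637 and 601 CPM after LLC supernatant, against 14.9, 11.2, 15.2 and 13.9 CPM in control cells. Spp1 (chr5:104435111-104441053) was at 14896, 14985 and 14676 CPM after LLC supernatant and at 9.95, 10.8, 8.16 and 7.76 CPM in control cells. The libraries of the groups did not overlap for either gene, and edgeR's quasi-likelihood test with Benjamini-Hochberg adjustment over all genes gave log2 differences of 5.49 ± 0.11 for C5ar1 (SE; adjusted p = 8.34e-11) and 10.66 ± 0.14 for Spp1 (adjusted p = 1.01e-11). In bulk RNA such a change cannot be told apart from a change in the number of cells that carry the transcript.

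Ly6c2, the main gene of the Ly6C antigen in monocytes, went against the label. It was at 14.49, 14.9 and 12.2 CPM in the 3 libraries labelled Ly6C+ after LLC supernatant, at 1338, 1393 and 1204 CPM after MC38 supernatant, also labelled Ly6C+, and at 1884, 1520.5, 1887 and 1885 CPM in control cells (LLC minus control log2 difference -7.02 ± 0.14, adjusted p = 6.91e-11). Its near-identical neighbor Ly6c1 was also lower (-6.89 ± 0.17), at 0.173, 0.277 and 0.171 CPM after LLC supernatant and at 24.8, 24.0, 24.4 and 28.5 CPM in control cells. Reads can be split between both genes, so their single values are uncertain, but both moved the same way. Ly6a, which encodes Sca1, was at 11.9, 11.5 and 11.2 CPM after LLC supernatant, at 1557, 1628 and 1344 CPM after MC38 supernatant and at 9.001, 8.13, 8.65 and 12.2 CPM in control cells. The LLC supernatant and control ranges overlap (log2 difference 0.28 ± 0.13, adjusted p = 0.0766). Ly6a passed under 4 of 15 alternative settings, among them the fit without control replicate 4 (log2 0.43, adjusted p = 0.00239).

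**Figure D1:**
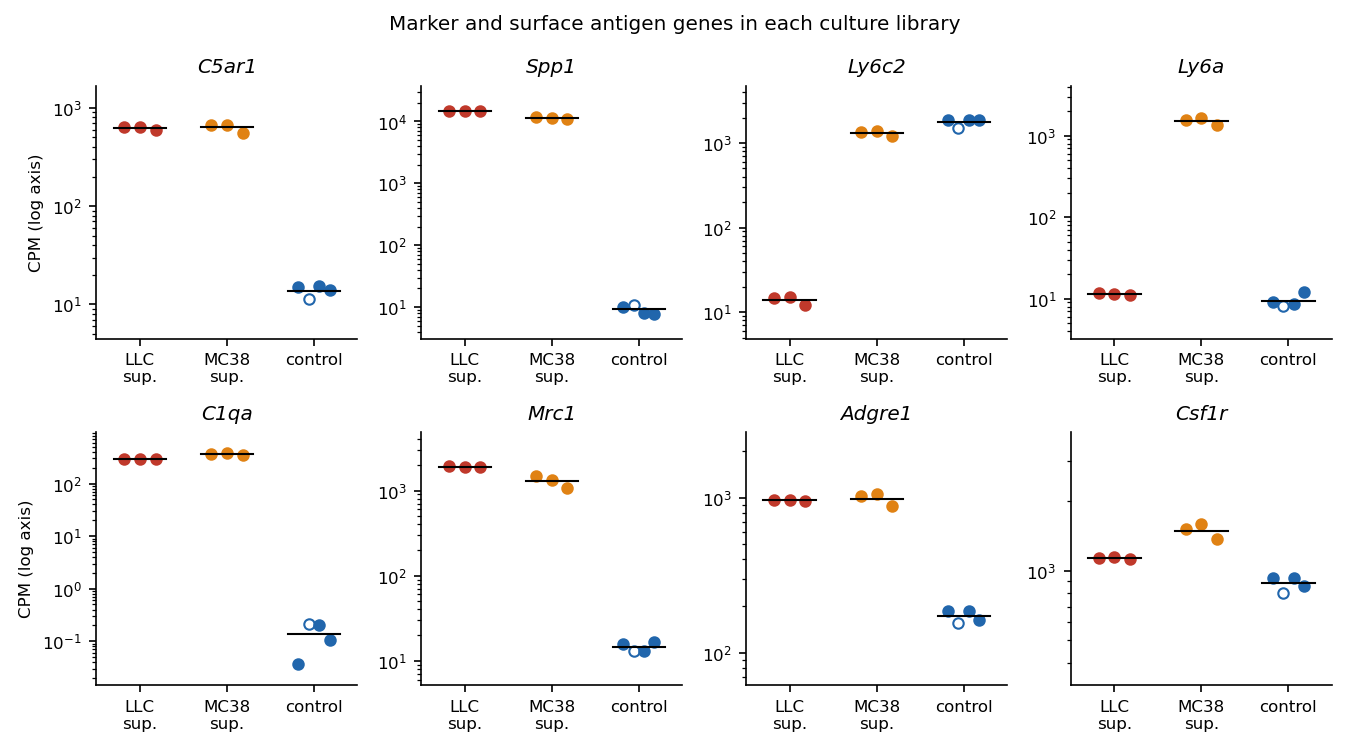
CPM on a log axis in each library for the genes of the labelled surface antigens, the marker Spp1 and macrophage genes; points are libraries, bars are group means, and open circles mark control culture replicate 2. C5ar1 lay between 601 and 639 CPM after LLC supernatant and between 11.2 and 15.2 CPM in control cells, whereas Ly6c2 lay between 12.2 and 14.9 CPM after LLC supernatant and between 1520.5 and 1887 CPM in control cells.

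Of 12603 genes tested, 4068 rose after LLC supernatant (32.3%) and 4547 fell (36.1%), so 68.4% passed the adjusted p of 0.05. At least 2-fold changes were found for 2070 higher genes (16.4%) and 1891 lower genes, and 727 changed at least 16-fold. The libraries of the groups did not overlap for 9105 genes (72.2%). The median log2 difference over all genes tested was -0.07. Because most genes passed, each list of genes is read against these shares. Without control replicate 2, 4423 of 12497 genes rose (35.4%) and 4821 fell (38.6%), and of the 8588 genes called with it and tested without it, 8436 were called in the same direction and the other 152 were not called.

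**Figure D2:**
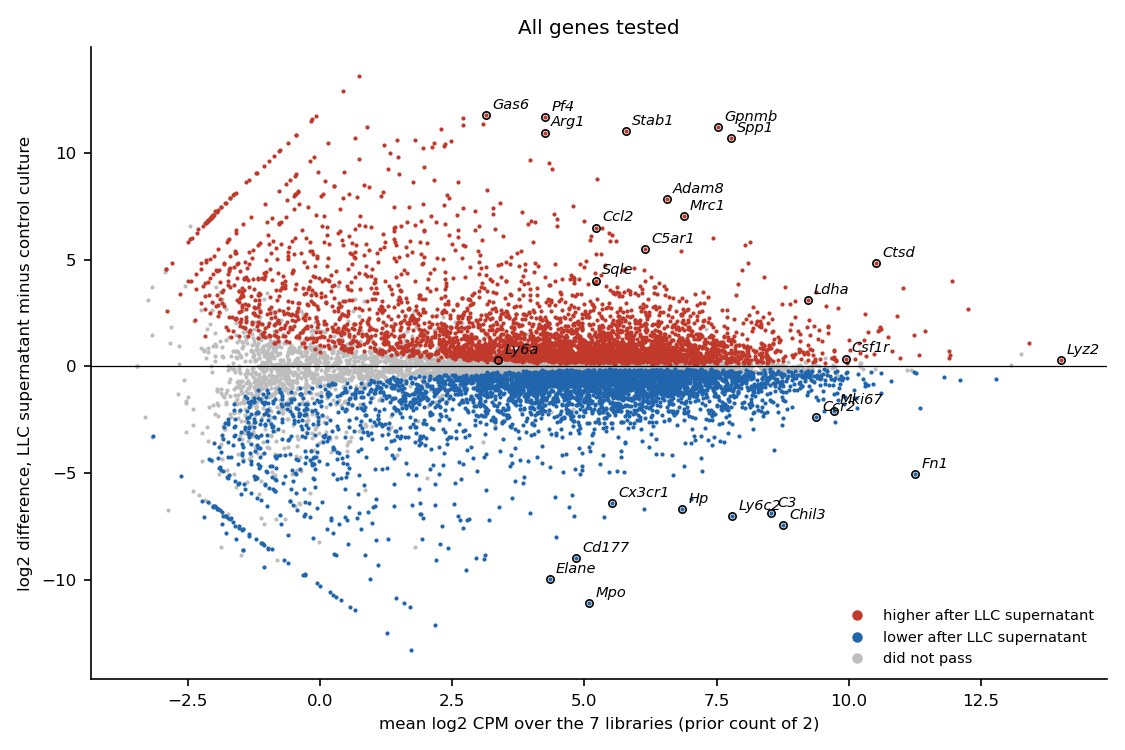
Log2 difference (LLC supernatant minus control culture) of each of the 12603 genes tested against its mean log2 CPM over the 7 libraries; grey points did not pass, colored points passed the adjusted p of 0.05 in either direction, and named points are genes described in the text. Rises and falls both reached beyond 10 on the log2 scale, with Gas6, Stab1, Spp1 and Gpnmb on the upper edge and Mpo, Elane and Cd177 on the lower edge.

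Among the largest rises were genes of clearance of dead cells, of complement and of platelet chemokines. Gas6, a bridging protein that links dying cells to receptors of phagocytes, was at 795, 799 and 792 CPM after LLC supernatant and at 0.293, 0.495, 0.121 and 0.0524 CPM in control cells (log2 difference 11.76 ± 0.23). Stab1, a scavenger receptor of macrophages, reached 4161, 4264 and 4134 CPM after LLC supernatant, against 1.94, 2.48, 2.13 and 1.68 CPM in control cells (11.002 ± 0.14). Gpnmb, a glycoprotein of lysosomes and melanosomes, was at 15653, 15788 and 15332 CPM after LLC supernatant and at 5.82, 8.70, 5.99 and 6.24 CPM in control cells (11.21 ± 0.17). All 3 genes were low in every control library and near even across the 3 LLC supernatant libraries.

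Some of the largest rises had no counts at all in control cells, where only a bound can be given, with the group total of control counts set to 3. Fxyd2, a regulator of the sodium pump, was at 41.5, 42.2 and 41.7 CPM after LLC supernatant and at 0 in all control libraries, at least 1190.1-fold higher. Raet1d, a ligand of the lymphocyte receptor NKG2D, was at least 523-fold higher, the secreted protein gene Oit3 at least 472-fold and the long noncoding RNA Mexis, which in mouse macrophages acts at the cholesterol transporter gene Abca1, at least 447-fold. Raet1d belongs to a family of near-identical genes and is uncertain for that reason. Nos2, the inducible nitric oxide synthase, was at 10.1, 10.6 and 9.35 CPM after LLC supernatant and at 0 in control cells, at least 286-fold higher. These bounds, and the counting intervals given later, hold counting error alone, since PCR copies of a molecule are counted as separate reads.

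Among the largest falls were genes of progenitors, granules and patrolling monocytes. Mpo, the myeloperoxidase of primary granules, was at 0.303, 0.356 and 0.512 CPM after LLC supernatant and at 901, 751, 912 and 866 CPM in control cells (log2 difference -11.08 ± 0.29, adjusted p = 7.07e-10). Btla, an inhibitory receptor of leukocytes, had 1 count in all LLC supernatant libraries together and 7464 in the control libraries, a control over LLC ratio of 6274 (95% exact counting interval 1126 to 247831). Smim5, a small membrane protein gene, and Nkg7, a granule membrane gene of lymphocytes, had no counts after LLC supernatant and were at least 756-fold and at least 329-fold lower. Ear2, an eosinophil-type ribonuclease also made by monocytes, was at least 1353-fold lower, but the Ear genes share reads and its value is uncertain. Adgre4, a surface receptor of monocytes (0 to 0.0396 CPM after LLC supernatant against 35.0 to 45.7 CPM in control cells), and Ms4a3, a marker of granulocyte and monocyte progenitors (0 to 0.0433 against 30.5 to 39.2 CPM), were close to 0 after LLC supernatant. The same held for Upb1 (0 to 0.0433 against 15.8 to 21.8 CPM), an enzyme of pyrimidine breakdown, Rem1 (0 to 0.0433 against 16.7 to 22.5 CPM), a small GTPase, Rflnb, a filamin-binding protein (-9.07 ± 1.09, or -9.68 without LLC supernatant replicate 1), and Fcnb, a ficolin of granules (-8.94 ± 0.23). Cldn15, a claudin of cell junctions, had 2 counts in the LLC supernatant libraries together and 1337 in the control libraries, a control over LLC ratio of 562 (95% exact counting interval 155 to 4644).

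Macrophage genes rose almost without exception. Of 30 tested, 28 rose and 2 fell, with a median log2 difference of 3.96, against -0.07 over all genes. The 3 genes of C1q, the starter of the classical complement pathway and a product of mature macrophages, were near 0 in control cells: C1qa was at 294, 295 and 295 CPM after LLC supernatant and at 0.0366, 0.212, 0.201 and 0.105 CPM in control cells. C1qb and C1qc had differences of 11.33 ± 0.25 and 11.61 ± 0.27. Mrc1, the mannose receptor, was at 1922, 1896 and 1902 CPM after LLC supernatant and at 15.5, 13.2, 12.9 and 16.7 CPM in control cells (7.03 ± 0.14), and Folr2, a folate receptor of resident-type macrophages, at 196, 198 and 197 against 0.0732, 0.424, 0.121 and 0.105 CPM (10.27 ± 0.23, or 10.89 without control replicate 2).

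Receptors for dying cells split. Mertk, the receptor that binds Gas6, was at 92.8, 93.1 and 91.0 CPM after LLC supernatant and at 0.549, 1.13, 0.523 and 0.629 CPM in control cells (7.10 ± 0.18), and Trem2, a lipid receptor, at 397, 408 and 393 against 30.6, 25.9, 29.4 and 32.99 CPM (3.75 ± 0.09). Axl, another receptor of Gas6, stood against the list at 11.2, 10.5 and 9.65 CPM after LLC supernatant and at 20.1, 26.4, 19.9 and 20.7 CPM in control cells (-1.06 ± 0.13, adjusted p = 3.85e-05). The other member that fell was Pros1, another bridging protein of these receptors (-1.54 ± 0.57, adjusted p = 0.0388), which missed the threshold under 9 of 15 alternative settings (adjusted p up to 0.102). Markers that control cells already carried moved less. Adgre1, which encodes F4/80, was at 972, 969.9 and 954 CPM after LLC supernatant and at 185, 155, 185 and 162 CPM in control cells (2.49 ± 0.08), and Cd68 at 2355, 2319 and 2305 against 349.8, 294, 338 and 337 CPM (2.82 ± 0.07). Csf1r, the receptor of macrophage colony stimulating factor, was high in both groups, at 1135, 1149.5 and 1123 CPM after LLC supernatant and at 936, 800.0, 934 and 859.7 CPM in control cells (0.36 ± 0.07). Maf, a transcription factor that acts in macrophage maturation, rose by 6.79 ± 0.13.

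Genes of lipid-laden macrophages and of lysosomes rose together with these markers. Of 24 genes tested from the lipid-associated list 22 rose (median 3.82), and Itgax (log2 difference 0.54 ± 0.30) and Cst7 (-0.04 ± 0.10) did not pass. The fatty acid binding protein Fabp5 was at 1918, 1836 and 1814 CPM after LLC supernatant and at 65.9, 56.7, 66.2 and 70.3 CPM in control cells (4.84 ± 0.09), and Cd36, a receptor for oxidized lipids, at 363, 346 and 356 against 2.60, 2.26, 2.77 and 2.52 CPM (7.11 ± 0.13). Fabp4 reached 91.5, 90.4 and 94.7 CPM after LLC supernatant, with 0.403, 0.212, 0.241 and 0 CPM in control cells (8.61 ± 0.36). Lysosomal genes were also mostly higher, 29 of 37 rising and 3 falling (median 1.57). Among the proteases, Ctsd was at 9999.6, 9963 and 9767 CPM after LLC supernatant and at 356, 319, 365 and 346 CPM in control cells (4.84 ± 0.07), Lgmn, which cleaves after asparagine, at 2823, 2774 and 2792 against 50.2, 49.4, 50.7 and 50.8 CPM (5.80 ± 0.07), and Ctsl at 1878, 1858 and 1870.3 against 31.3, 25.2, 31.0 and 28.4 CPM (6.01 ± 0.10).

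Subunits of the proton pump that acidifies lysosomes were among the genes that rose, with Atp6v0d2 (8.41 ± 0.58, or 9.70 without control replicate 4), Atp6v0a1 (2.68 ± 0.07) and Atp6v1a (2.20 ± 0.07). The lysosomal genes that fell were Ctsg (-8.81 ± 0.20), a granule protease of neutrophils and their progenitors, and the cathepsins Ctse (-2.18 ± 0.10) and Ctsh (-0.80 ± 0.09). Mitf, a factor of the family that drives lysosomal genes, rose (1.99 ± 0.10), and Tfeb of the same family fell (-1.38 ± 0.09). That family binds an E-box with the letters TCACGTG, which was added to the motifs searched after the values of the lysosomal genes were seen. It was searched on both strands in RefSeq promoter windows of GRCm38.p6 that run from 250 bases before to 50 bases after each start. It stood in 26.7% of 30 promoters of lysosomal genes, for 8 of 27 genes, in 11.8% of 17 promoters of the lipid-associated list, and in 3.77% of all 32851 promoters. Because it holds the letters ACGTG, each match is also a match of the hypoxia element searched below. The 3 stretches below show where it stands in called members with a small adjusted p that hold it before the start. The motif and any directly repeated overlapping match are in capitals, and the stretches are read 5' to 3' on the gene's strand.
Lgmn, chr12:102439106-102439172, minus strand: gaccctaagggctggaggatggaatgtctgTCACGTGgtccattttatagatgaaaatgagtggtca
Ctsd, chr7:142387889-142387955, minus strand: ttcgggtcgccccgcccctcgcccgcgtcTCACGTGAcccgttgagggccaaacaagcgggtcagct
Atp6v1a, chr16:44139354-44139420, minus strand: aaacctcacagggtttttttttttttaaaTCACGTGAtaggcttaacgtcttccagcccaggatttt
A match is a description of these letters and does not show binding.

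Cholesterol synthesis rose as a block. Of 24 genes tested, 23 rose, each at least 2-fold, and 1 did not pass (median log2 difference 2.10). Sqle, squalene epoxidase, was at 182, 182 and 179.5 CPM after LLC supernatant and at 10.3, 11.7, 10.8 and 12.1 CPM in control cells (4.01 ± 0.07), and Lss, the next enzyme, at 100.4, 98.9 and 97.5 against 4.65, 6.01, 5.03 and 6.24 CPM (4.18 ± 0.13). Hmgcs1, an early enzyme of the pathway, rose by 2.54 ± 0.10 and Fdps, farnesyl diphosphate synthase, by 2.40 ± 0.06. Srebf2, the master factor of the pathway, rose less (1.12 ± 0.05). Ebp, a sterol isomerase, did not pass (-0.16 ± 0.10, adjusted p = 0.176) and was lower without control replicate 2 (-0.26, adjusted p = 0.00144). The sterol response element TCACNCCAC stood in 1 of 20 promoters of these genes, that of Hmgcs1, which is shown with the motif in capitals.
Hmgcs1, chr13:119690184-119690252, plus strand: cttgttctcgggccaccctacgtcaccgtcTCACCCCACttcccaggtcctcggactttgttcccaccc
This share compares with 1.24% of all promoters, and the letters searched are a single form of a variable element.

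Efflux and desaturation genes moved with them. Abca1, which exports cholesterol, was at 532, 569.6 and 518 CPM after LLC supernatant and at 5.60, 13.6, 7.08 and 4.77 CPM in control cells (6.16 ± 0.32), and the stearoyl-CoA desaturase Scd2 at 2471, 2498 and 2404 against 49.1, 51.8, 48.4 and 45.8 CPM (5.66 ± 0.14). Scd1 was at 273, 284 and 278 CPM after LLC supernatant, with 0.146, 3.32, 0.241 and 0.734 CPM in control cells (8.27 ± 0.74, or 9.65 without control replicate 2). In the list of lipid efflux genes and genes of the nuclear receptors LXR and PPAR, 15 of 23 rose and 2 fell (median 1.01), and the lower genes were Cpt1a (-1.24 ± 0.07), the gate of fatty acid oxidation, and Apoc2 (-1.09 ± 0.40), an apolipoprotein, which missed the threshold under 9 of 15 alternative settings (adjusted p up to 0.116). Pparg, the lipid-sensing receptor PPAR gamma, was at 11.4, 9.90 and 9.61 CPM after LLC supernatant and at 2.45, 54.3, 1.97 and 1.99 CPM in control cells, where replicate 2 stands apart. Its difference was -0.53 ± 1.22 without passing (adjusted p = 0.719), and 2.26 without that library (adjusted p = 8.76e-08).

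Glycolysis and the genes of the hypoxia response rose in 31 of 35 cases, with 1 lower and a median of 2.0. Ldha, lactate dehydrogenase, was at 2037, 2046 and 2009 CPM after LLC supernatant and at 242, 243, 249 and 218 CPM in control cells (3.09 ± 0.06). Tpi1, an enzyme in the middle of glycolysis, was at 1335, 1349 and 1343 against 186, 168, 183 and 179 CPM (2.91 ± 0.06). Among genes that hypoxia-inducible factors are known to raise, Egln3, an oxygen sensor, was at 240.3, 244 and 241 CPM after LLC supernatant and at 2.89, 1.91, 2.25 and 1.68 CPM in control cells (6.76 ± 0.15), Pdk1, an inhibitor of pyruvate dehydrogenase, at 320.5, 317 and 307 against 15.8, 12.2, 14.96 and 12.6 CPM (4.49 ± 0.10), and Bnip3, a mitophagy receptor, at 337, 337 and 319 against 14.1, 17.2, 12.1 and 12.8 CPM (4.56 ± 0.12). The glucose transporter Slc2a1 rose by 2.81 ± 0.08. Pfkfb4, which tunes the pace of glycolysis, was the member that fell (-0.63 ± 0.08). Hk2, hexokinase 2, was at 233, 236 and 222 CPM after LLC supernatant and at 247, 213, 234 and 229 CPM in control cells and did not pass (adjusted p = 0.959), though it was higher in the fit of the 7 libraries alone (log2 0.13, adjusted p = 0.0213).

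Control replicate 2 bears on several of these genes. Vegfa, the growth factor of blood vessels, was at 244, 257 and 243 CPM after LLC supernatant and at 3.55, 26.6, 4.06 and 3.78 CPM in control cells (4.78 ± 0.75, or 6.03 without replicate 2). Hif1a, the inducible factor itself, was at 109.7, 112 and 116 CPM after LLC supernatant and at 70.5, 192, 70.2 and 68.4 CPM in control cells. It did not pass with replicate 2 (0.17 ± 0.36, adjusted p = 0.694) and rose without it (0.69, adjusted p = 2.5e-07). In promoters of the list, the core letters of the hypoxia response element, ACGTG, stood in 53.8% of 52 windows, for 24 of 34 genes, against 19.6% of all promoters. Shown are 3 called members with a small adjusted p that hold the motif before the start, with every match on either strand in capitals.
Ldha, chr7:46845740-46845803, plus strand: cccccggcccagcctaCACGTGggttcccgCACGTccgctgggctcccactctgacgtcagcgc
Aldoa, chr7:126799346-126799410, minus strand: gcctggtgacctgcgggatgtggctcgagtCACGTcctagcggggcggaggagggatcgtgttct
Egln3, chr12:54204069-54204124, minus strand: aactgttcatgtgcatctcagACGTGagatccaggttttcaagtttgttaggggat
Aldoa, which encodes an aldolase, rose by 2.44 ± 0.05. Its window is written on the gene's strand and holds the element as its reverse complement.

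**Figure D3:**
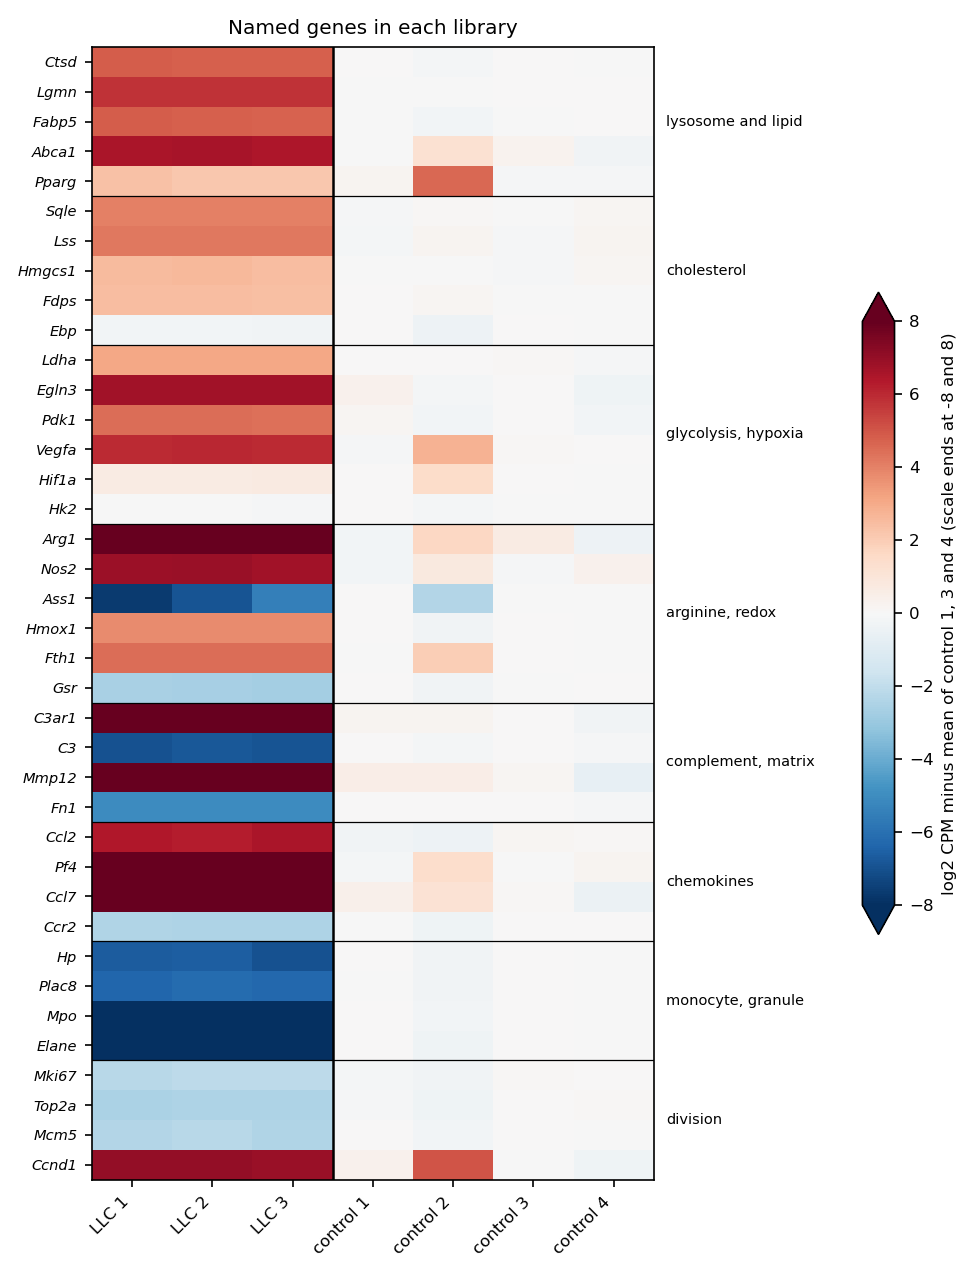
Log2 CPM (prior count of 2) of named genes in each of the 7 libraries, minus the mean of control replicates 1, 3 and 4, in rows grouped by gene list; red is above and blue below that mean. The 3 LLC supernatant libraries are close to each other in the rows other than Ass1, and control replicate 2 stands apart for Pparg, Vegfa, Fth1, Ccnd1 and Ass1 among others.

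Of 19 genes of arginine and polyamine metabolism 10 rose and 3 fell (median 0.53), the same share called as the 68.4% over all genes. Arg1, arginase, which turns arginine into ornithine and urea, was at 1420.5, 1441 and 1364 CPM after LLC supernatant and at 0.403, 1.63, 0.804 and 0.315 CPM in control cells (10.93 ± 0.32, adjusted p = 2.18e-09), alongside the rise of Nos2. Ass1, which rebuilds arginine from citrulline, fell to 0.908, 1.62 and 4.40 CPM after LLC supernatant, against 207, 39.4, 199 and 194 CPM in control cells (-6.11 ± 0.82, or -6.96 without LLC supernatant replicate 3). Genes of alternative activation also moved in both directions, 15 of 24 rising and 5 falling (median 1.74). Tgm2, transglutaminase 2, rose to 93.8, 94.0 and 94.7 CPM after LLC supernatant, against 0.256, 0.495, 0.362 and 0.997 CPM in control cells (7.55 ± 0.24), and the interleukin 4 receptor chain Il4ra rose by 1.85 ± 0.09. Chil3, the chitinase-like protein Ym1, fell to 23.4, 22.1 and 23.4 CPM after LLC supernatant, against 4202, 3356, 4049 and 3949 CPM in control cells (-7.40 ± 0.13), and the beta-glucan receptor Clec7a fell by 4.08 on the log2 scale.

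Iron and redox genes rose in 18 of 28 cases and fell in 5 (median 1.17). Hmox1, heme oxygenase, was at 1107, 1104 and 1097 CPM after LLC supernatant and at 80.3, 66.2, 80.7 and 78.4 CPM in control cells (3.85 ± 0.08), and the iron exporter Slc40a1 at 47.9, 44.4 and 44.8 against 3.99, 3.75, 5.07 and 4.62 CPM (3.39 ± 0.11). The ferritin light chain Ftl1 rose by 2.68 ± 0.09. The heavy chain Fth1 was at 9972, 9922 and 10119 CPM after LLC supernatant and at 456, 1777, 464 and 449.6 CPM in control cells (3.67 ± 0.53, or 4.45 without control replicate 2). Srxn1, sulfiredoxin, rose by 4.25 ± 0.09, while Gsr, glutathione reductase, was lower at 79.5, 77.2 and 73.4 CPM after LLC supernatant against 488, 392.4, 472 and 493 CPM in control cells (-2.59 ± 0.09).

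Complement genes moved in both directions. Beside C1q, receptors of complement fragments were among those that rose. C3ar1, the receptor of C3a, was at 1224, 1238 and 1162 CPM after LLC supernatant and at 3.07, 3.04, 2.69 and 2.15 CPM in control cells (8.78 ± 0.13), and C5ar2, another receptor of C5a, at 29.0, 31.0 and 29.1 against 8.53, 5.16, 8.24 and 7.87 CPM (1.98 ± 0.15). C3, the central component, fell to 22.7, 26.6 and 24.2 CPM after LLC supernatant, against 2987, 2591, 3004 and 2760.1 CPM in control cells (-6.86 ± 0.12, adjusted p = 3.75e-11), and Cfb, its partner in the alternative pathway, fell by 2.17 on the log2 scale. In all, 10 of 16 complement genes rose and 3 fell (median 1.6).

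Of 28 matrix genes 17 rose and 5 fell (median 2.13), with most of the proteases among those that rose. Without control replicate 2, 18 of 27 rose and 5 fell (median 2.87). Mmp12, the macrophage elastase, was at 312, 313 and 284 CPM after LLC supernatant and at 0.293, 0.212, 0.201 and 0.0524 CPM in control cells (10.54 ± 0.20), and Mmp27, another metalloproteinase, at 181, 166 and 166 against 0.183, 0, 0.161 and 0.157 CPM (10.20 ± 0.24). Adam8, a membrane protease, was at 2078, 2062 and 2089.5 CPM after LLC supernatant and at 9.81, 9.40, 9.65 and 8.08 CPM in control cells (7.81 ± 0.10). Mmp9 and Mmp8, proteases also stored in neutrophil granules, rose by 7.03 ± 0.23 and 3.07 ± 0.11. Mmp13, a collagenase, was at 68.7, 65.5 and 68.5 CPM after LLC supernatant and at 0.0732, 3.82, 0 and 0 CPM in control cells (6.55 ± 0.96, or 10.98 without control replicate 2). The protease that fell was Mmp25 (-4.25 ± 0.71, or -5.08 without LLC supernatant replicate 1 and -3.65 without LLC supernatant replicate 2).

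Genes of the matrix proteins themselves went both ways. Fn1, fibronectin, was at 329, 328 and 334 CPM after LLC supernatant and at 11343, 11049, 11365 and 10054 CPM in control cells (-5.05 ± 1.06, adjusted p = 0.00317), and the proteoglycan Vcan at 70.0, 74.1 and 71.1 against 150.5, 154, 191 and 181 CPM (-1.24 ± 0.25). The SE of Fn1 is wider than these levels show, because the fit also holds the spread of the MC38 supernatant libraries. Thbs1, thrombospondin, rose to 1476, 1543 and 1513 CPM after LLC supernatant, against 59.2, 64.3, 76.0 and 63.9 CPM in control cells (4.52 ± 0.09). In coagulation, where 10 of 17 rose and 4 fell, F7, the factor that starts clotting with tissue factor, was at 212, 211 and 208 CPM after LLC supernatant and at 2.38, 2.12, 2.01 and 1.63 CPM in control cells (6.68 ± 0.12), and Plau, urokinase, at 354, 356 and 346 against 30.7, 25.2, 27.3 and 25.1 CPM (3.70 ± 0.09). F13a1, the clot-stabilizing transglutaminase, was at 4563, 4537 and 4433 CPM after LLC supernatant and at 3701, 2899.5, 3580.5 and 3414 CPM in control cells and rose by 0.41 ± 0.10.

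Chemokines that draw monocytes and neutrophils rose. Of 11 CC chemokines tested 9 rose and 2, Ccl24 (0.98 ± 0.45) and Ccl22 (5 counts after LLC supernatant, all in replicate 2, and 0 in control cells), did not pass (median 4.53), though Ccl24 passed without control replicate 1 (log2 1.5, adjusted p = 0.00935), and all 6 neutrophil-attracting and platelet CXC chemokines rose. Ccl2, the main ligand of the receptor CCR2, was at 486, 448 and 535 CPM after LLC supernatant and at 4.79, 4.31, 6.31 and 6.24 CPM in control cells (6.49 ± 0.15), and Ccl7, which binds the same receptor, at 256, 223 and 292 against 0.220, 0.353, 0.161 and 0.0524 CPM (10.38 ± 0.22). Pf4, platelet factor 4, was at 1748, 1776 and 1790.5 CPM after LLC supernatant and at 0.366, 1.202, 0.402 and 0.472 CPM in control cells (11.64 ± 0.24), and its neighbor Ppbp at 466, 451 and 448 against 0.256, 0.141, 0.121 and 0.157 CPM (11.30 ± 0.14). Cxcl3, a neutrophil attractant, rose by 9.96 ± 0.28. Cxcl10, an interferon-induced attractant of T cells, was lower, at 1.56, 0.792 and 0.769 CPM after LLC supernatant and at 8.16, 6.646, 7.92 and 7.40 CPM in control cells (-2.85 ± 0.24).

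The receptors changed in both directions. Cmklr1, the chemerin receptor, rose to 86.9, 85.0 and 85.5 CPM after LLC supernatant, against 1.72, 1.06, 1.61 and 1.10 CPM in control cells (5.92 ± 0.14). Ccr2, by which monocytes leave the bone marrow, fell to 266, 258 and 261 CPM after LLC supernatant, against 1408, 1118, 1452 and 1443 CPM in control cells (-2.37 ± 0.15). Cx3cr1, the fractalkine receptor of patrolling monocytes, fell to 3.55, 3.84 and 3.502 CPM after LLC supernatant, against 342, 254, 320.3 and 306 CPM in control cells (-6.39 ± 0.23).

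Among secreted factors, Igf1, a growth factor, was at 74.3, 73.5 and 74.6 CPM after LLC supernatant and at 0.146, 0.141, 0.161 and 0.105 CPM in control cells (8.99 ± 0.11), and Gdf15, a stress cytokine, at 21.2, 19.4 and 31.8 CPM after LLC supernatant with 1 count in all control libraries together, a ratio of 2052 (95% exact counting interval 368 to 81107). Il10, which dampens inflammation, was at 2.42, 2.10 and 1.92 CPM after LLC supernatant and at 0 in all control libraries, at least 61.1-fold higher. Inflammatory cytokines did not follow as a group. Il1b was near 1 CPM in both groups, at 0.995, 0.435 and 0.897 after LLC supernatant and 1.06, 1.06, 0.965 and 0.839 in control cells, without passing (adjusted p = 0.341), and Tnf rose by 0.51 ± 0.11. Il1a was at 1.43, 1.62 and 0.897 CPM after LLC supernatant and at 0 in all control libraries, at least 37.7-fold higher. Of 25 genes of NF-kB and inflammation 12 rose and 10 fell (median 0.51), with the subunit Nfkb1 lower (-1.75 ± 0.07). The checkpoint ligand gene Cd274, which encodes PD-L1, was at 84.1, 87.7 and 86.7 CPM after LLC supernatant and at 3.99, 2.69, 3.62 and 2.94 CPM in control cells (4.68 ± 0.13), and the inhibitory receptor Cd200r1 at 145, 145 and 146 against 8.93, 6.93, 8.12 and 7.501 CPM (4.20 ± 0.10). Over costimulatory and checkpoint genes 11 of 20 rose and 7 fell (median 0.83).

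**Figure D4:**
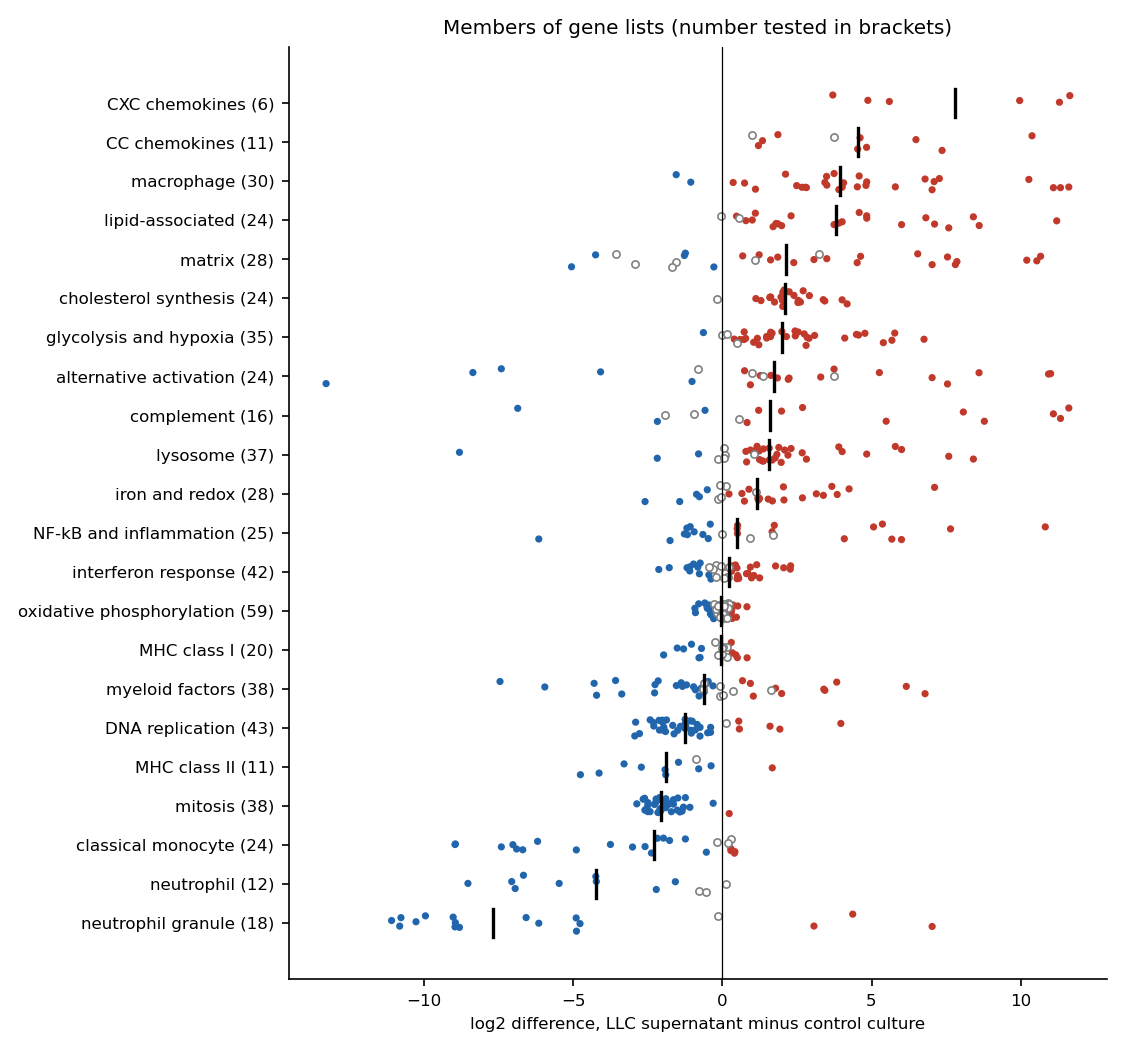
Log2 difference (LLC supernatant minus control culture) of each tested member of 22 gene lists; filled points passed the adjusted p of 0.05, open points did not, and the vertical bar is the list median. The lists run from the highest median at the top to the lowest at the bottom: neutrophil-attracting CXC and CC chemokines, macrophage and lipid-associated genes lie right of 0, and mitotic, neutrophil and granule genes left of 0.

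Genes that define circulating monocytes fell. Of 24 classical monocyte genes 17 fell and 4 rose (median -2.27), the 17 including Ly6c2 and Ccr2. Plac8 was at 10.4, 11.9 and 11.02 CPM after LLC supernatant and at 849.9, 689, 858 and 848 CPM in control cells (-6.19 ± 0.13), and Hp, haptoglobin, at 8.52, 9.15 and 6.92 against 891, 724, 901 and 864 CPM (-6.69 ± 0.15). Lyz2, lysozyme, was high in both groups, at 18839, 18370.5 and 18317 CPM after LLC supernatant and at 16002, 13413, 16147 and 15113 CPM in control cells, and rose slightly (0.29 ± 0.07). Of 17 genes of nonclassical monocytes 10 fell and 4 rose (median -1.79). The integrin chain Itgal fell to 13.3, 15.01 and 12.9 CPM after LLC supernatant, against 482, 433, 499 and 434 CPM in control cells (-5.07 ± 0.09), and Spn, which encodes CD43, fell by 4.64 on the log2 scale.

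The transcription factors of the myeloid list fell more often than they rose, 21 against 10 of 38 tested (median -0.61). Irf4 was at 1.12, 1.27 and 1.62 CPM after LLC supernatant and at 24.4, 22.98, 28.1 and 30 CPM in control cells (-4.29 ± 0.26), and Klf4, a factor of monocyte development, at 25.3, 23.5 and 39.9 against 375, 282, 380.3 and 371 CPM (-3.58 ± 0.21). Irf8 and Spi1, the factors that set monocyte fate, fell less (-1.199 ± 0.10 and -0.78 ± 0.09). Myb, which keeps progenitors dividing, was at 0.216, 0.396 and 0.0854 CPM after LLC supernatant and at 48.1, 35.6, 45.1 and 39.5 CPM in control cells (-7.45 ± 0.38, or -8.06 without LLC supernatant replicate 2). Among receptors of colony stimulating factors, the progenitor receptor Flt3 fell to 0.260, 0.198 and 0.171 CPM after LLC supernatant, against 28.6, 20.8, 28.9 and 25.4 CPM in control cells (-6.92 ± 0.21), and Csf3r, the receptor of granulocyte colony stimulating factor, fell by 2.21 on the log2 scale.

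Granule genes had the lowest median of the 54 lists. Of 18 granule genes 14 fell and 3 rose, with a median of -7.69, or -6.99 when genes without counts are put at their bound. Elane, neutrophil elastase, was at 0.389, 0.277 and 0.427 CPM after LLC supernatant and at 387, 303, 384 and 378 CPM in control cells (-9.95 ± 0.26), Cd177 at 0.865, 0.713 and 0.811 against 410.5, 362, 424 and 393 CPM (-8.96 ± 0.19) and Camp, a granule peptide, at 0.173, 0.277 and 0.171 against 117, 89.2, 118 and 119.8 CPM (-9.02 ± 0.28). Those that rose were Mmp9, Mmp8 and Ltc4s, leukotriene C4 synthase (4.37 ± 0.36). Of 12 genes that mark neutrophils 9 fell and 3 did not pass (median -4.23). S100a8, a calcium-binding protein, was at 2.55, 3.48 and 1.58 CPM after LLC supernatant and at 339.5, 278, 367 and 375 CPM in control cells (-7.06 ± 0.28).

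Markers of other cells moved with these genes, and their part in the results was not tested. The 18 granule genes summed to between 1991 and 2038 CPM after LLC supernatant, of which Mmp8 gave 1694 to 1748 CPM, and between 2522 and 3144 CPM in control cells, where Mmp8 gave 167 to 218 CPM, and Itgb2l and Prss57 were at 0 after LLC supernatant and no granule gene was at 0 in all control libraries. The 16 neutrophil genes summed to 187.2 to 192.2 CPM after LLC supernatant and 1109.7 to 1459 CPM in control cells, with Stfa1, Stfa2, Stfa2l1 and Mrgpra2b at 0 after LLC supernatant and 3 of the 16 at 0 in all control libraries. The 14 T and NK cell genes summed to 220.2 to 227.2 CPM after LLC supernatant and 11.7 to 15.7 CPM in control cells, almost all of it Il7r (216, 223 and 216 CPM after LLC supernatant, against 0.220, 0.141, 0.161 and 0.0524 CPM in control cells), while 7 of the 14, among them Zap70, Ncr1 and Gzmb, were at 0 after LLC supernatant and 4 of the 14 were at 0 in all control libraries. Of 8 B cell genes Ms4a1, Pax5 and Ebf1 were at 0 after LLC supernatant, and the list summed to 31.95 to 35.3 CPM there and 12.6 to 16 CPM in control cells, where 2 of the 8 were at 0 in all libraries. The 10 endothelial genes summed to 132.0 to 144.9 CPM after LLC supernatant and 21.2 to 31.5 CPM in control cells through Vwf (76.3, 78.6 and 73.2 against 0.878, 0.353, 1.17 and 1.05 CPM) and Kdr (50.2, 56.6 and 49.97 against 0.0732, 10.8, 0 and 0 CPM), with Tek, Cldn5 and Emcn at 0 after LLC supernatant and 2 of the 10 at 0 in all control libraries. The 11 fat cell genes summed to 453.0 to 460.0 CPM after LLC supernatant and 133.3 to 209.2 CPM in control cells, with 6 of them, Plin1 and Cidec included, at 0 after LLC supernatant and 1 at 0 in all control libraries. Fabp4 is on this list and gave only the smaller part of the sum in both groups. Of the fat cell genes 2 were tested and both rose, Fabp4 by 8.61 and the other by 1.01. The 16 dendritic cell genes summed to 218.0 to 224.1 CPM after LLC supernatant and 145.8 to 161.2 CPM in control cells, with Zbtb46, Siglech and Cd207 at 0 after LLC supernatant and 3 at 0 in all control libraries. By member the direction was the other one. Of 12 dendritic cell genes tested 2 rose (16.7%, against 32.3% of all genes) and 5 fell (41.7%, against 36.1%), with a median of -0.86. The 13 nervous system genes summed to 91.3 to 95.5 CPM after LLC supernatant and 202.2 to 233.9 CPM in control cells, with 4 at 0 after LLC supernatant and 2 in all control libraries. The 12 genes of mast cells, basophils and eosinophils summed to 4.44 to 6.18 CPM after LLC supernatant and 14.1 to 17.7 CPM in control cells, with Fcer1a, Ms4a2 and Epx at 0 after LLC supernatant and 1 of the 12 at 0 in all control libraries. The lists of fibroblasts, muscle, epithelium and red cells each summed to at most 7.74 CPM after LLC supernatant and, without control replicate 2, at most 22.1 CPM in control cells.

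Genes of cell division fell. Of 38 mitotic genes 37 fell and 1 rose (median -2.07). Mki67, the proliferation marker, was at 344, 386 and 383 CPM after LLC supernatant and at 1478, 1334, 1731 and 1680.5 CPM in control cells (-2.07 ± 0.14), Top2a at 161, 170.3 and 165 against 880.2, 739, 935 and 985 CPM (-2.42 ± 0.10), and the mitotic kinase gene Plk1 at 24.7, 23.1 and 23.5 against 139, 113, 141 and 144 CPM (-2.498 ± 0.10). The transcripts were lower and not absent after LLC supernatant. Pttg1, securin, was the member that rose (0.23 ± 0.08, adjusted p = 0.0252), and it missed the threshold without any 1 of the LLC supernatant libraries (adjusted p up to 0.0749). Of 43 genes of DNA replication 37 fell and 5 rose (median -1.24). The helicase subunit Mcm5 was at 50.1, 54.6 and 47.9 CPM after LLC supernatant and at 259, 226, 264 and 250.3 CPM in control cells (-2.29 ± 0.08), and the factor E2f2 at 41.3, 40.7 and 42.7 against 328, 266, 329 and 322 CPM (-2.90 ± 0.11). Cdkn1a, the cyclin-dependent kinase inhibitor p21, rose to 103, 105 and 107 CPM after LLC supernatant, against 24.5, 22.4, 31.1 and 32.0 CPM in control cells (1.93 ± 0.11). Ccnd1, a cyclin of the first growth phase, was at 95.1, 93.4 and 87.3 CPM after LLC supernatant and at 0.842, 23.9, 0.643 and 0.472 CPM in control cells (3.97 ± 1.24, or 7.09 without control replicate 2).

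The CHR element, TTTGAA, through which mitotic genes are known to be held down outside division, stood in 71.9% of 32 promoters of mitotic genes (21 of 30 genes), against 17.9% of all promoters. An E2F motif, TTTCCCGC or TTTGGCGC, stood in 18.2% of 44 promoters of replication genes and in 1.56% of all promoters, and in none of the 32 promoters of mitotic genes. Shown are 3 called mitotic members with a small adjusted p that hold the CHR letters before the start, with the element, on either strand, in capitals.
Top2a, chr11:99024190-99024242, minus strand: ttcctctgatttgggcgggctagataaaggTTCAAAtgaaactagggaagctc
Ccnb2, chr9:70421686-70421751, minus strand: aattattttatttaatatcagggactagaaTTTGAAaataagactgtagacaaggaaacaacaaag
Kif2c, chr4:117178840-117178905, minus strand: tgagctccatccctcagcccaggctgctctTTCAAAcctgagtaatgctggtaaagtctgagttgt
Ccnb2, cyclin B2, fell by 2.09 and Kif2c, a mitotic kinesin, fell by 1.96 on the log2 scale.

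Interferon response genes moved in both directions. Of 42 tested, 20 rose and 12 fell (median 0.22), and without control replicate 2 the counts were 18 and 13. Rsad2, which encodes viperin, was at 84.8, 85.1 and 81.1 CPM after LLC supernatant and at 17.6, 13.4, 17.9 and 19.4 CPM in control cells (2.29 ± 0.12), and Bst2, tetherin, at 123, 109 and 121 against 30.8, 24.4, 30.9 and 26.8 CPM (2.06 ± 0.10). Mx1 and Cmpk2, both antiviral, were lower: Mx1 was at 32.2, 32.1 and 33.4 CPM after LLC supernatant and at 122, 90.7, 119.9 and 115 CPM in control cells (-1.78 ± 0.13), and Cmpk2 fell by 2.13 on the log2 scale. MHC class II genes fell in 9 of 11 cases and 1 rose (median -1.89). H2-DMa, which loads peptides, was at 33.2, 34.9 and 33.2 CPM after LLC supernatant and at 133, 106, 132 and 132 CPM in control cells (-1.90 ± 0.09), and Ciita, the switch of the class II genes, at 0.173, 0.435 and 0.427 against 3.29, 4.03, 3.499 and 2.94 CPM (-3.29 ± 0.34). The member that rose was Ctss, cathepsin S (1.67 ± 0.09). Among 20 class I genes 5 rose, 7 fell and 8 did not pass (median -0.05), with B2m, the light chain, at 0.51 ± 0.10 and the immunoproteasome subunit Psmb10 at -1.51 ± 0.11. The interferon-stimulated response element, searched as GAAA repeated after any 2 bases, stood in 46.2% of 39 promoters of the interferon list and in 3.44% of all promoters.

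Immediate early genes fell in 11 of 27 cases and rose in 6 (median -0.77), and without control replicate 2 the count that rose was 10. Fos, a subunit of the factor AP-1, varied widely within both groups, at 139, 55.8 and 298 CPM after LLC supernatant and at 702, 906, 1517 and 1192 CPM in control cells, without overlap (-2.72 ± 0.60, adjusted p = 0.00392, or -3.46 without LLC supernatant replicate 3). Ier3 rose to 62.3, 57.9 and 65.6 CPM after LLC supernatant, against 1.61, 0.636, 1.05 and 1.36 CPM in control cells (5.68 ± 0.20). The heat shock gene Hspa1b, which shares reads with its near-identical copy Hspa1a and is uncertain, fell to 1.12, 0.752 and 0.427 CPM after LLC supernatant, against 81.6, 82.9, 62.2 and 65.8 CPM in control cells. Housekeeping lists had small medians, though some members moved further. Of 59 subunits of oxidative phosphorylation 12 rose and 22 fell, with differences between -0.92 and 0.83 (median -0.03), a split that became 21 and 13 in the fit of the 7 libraries alone. Of 35 genes of ribosome biogenesis 4 rose and 19 fell (54.3%, against 36.1% of all genes), with differences between -2.11 and 0.73 (median -0.30). Of 31 proteasome genes 7 rose and 14 fell, with differences between -1.36 and 1.21 (median -0.11). Of 29 genes of the unfolded protein response and the factor ATF4 8 rose and 7 fell (median 0.07). Other motifs searched were the ATF4 element TGATGNAA, in 24.1% of 29 promoters of that list and 3.97% of all promoters, the NRF2 antioxidant element TGACNNNGC, in 25% of 32 promoters of the redox list and 12.4% of all promoters, and the AP-1 element TGANTCA, in 15.4% of 26 promoters of the matrix list and 7.81% of all promoters, with no match in the 28 windows of immediate early genes.

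The MC38 supernatant libraries were used to ask which of the named changes differed between the supernatants. MC38 supernatant replicate 3 was also taken to hold transcripts of other tissues. It had counts for 16908 genes, against 14724 and 14706 in replicates 1 and 2. Of 12 fibroblast genes tested, 7 were lower after LLC than after MC38 supernatant (list median -9.49). The test between the supernatants was not rerun without replicate 3, so its calls may depend on that library. Over all genes, 40.1% passed the test between the supernatants, as 18.5% were higher and 21.6% lower after LLC than after MC38 supernatant. C5ar1 did not pass (LLC minus MC38 -0.01 ± 0.10, adjusted p = 0.929) and stood at 666, 669 and 562 CPM after MC38 supernatant, which does not show that both acted alike. Ldha (0.32 ± 0.06), Egln3 (1.62 ± 0.13), Sqle (1.21 ± 0.07), Gpnmb (1.14 ± 0.12) and Mki67 (1.81 ± 0.14) were higher after LLC than after MC38 supernatant. Mmp9 was at 62.0, 59.7 and 67.2 CPM after LLC and 2.72, 4.16 and 3.39 CPM after MC38 supernatant (4.20 ± 0.21), and Fxyd2 at 41.5, 42.2 and 41.7 against 2.31, 2.26 and 2.85 CPM (4.07 ± 0.13). Ly6c2 (-6.56 ± 0.14), Plac8 (-5.98 ± 0.13), Axl (-4.33 ± 0.15) and Ccl7 (-2.21 ± 0.14) were lower after LLC than after MC38 supernatant. As lists, 23 of 24 cholesterol synthesis genes and 36 of 38 mitotic genes were higher after LLC than after MC38 supernatant, and 42 of 42 interferon genes were lower.

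The change in culture was set beside the change between monocytes in mice, TuMon2 monocytes of LLC tumors minus monocytes from the spleens of mice with LLC tumors, in a model of all 34 libraries. The groups of culture and mice share no library. Of 4066 genes higher in culture in that model 47.6% were also higher in the tumor, and these were 53.3% of the genes higher in the tumor, while 24.9% of all 14582 genes were higher there. Of 4847 genes lower in culture 49.4% were also lower in the tumor, 53.3% of those lower there, with 30.8% of all genes lower. Opposite calls were made for 19.5% of the genes higher in culture and 15.8% of those lower. The test of the difference between both changes called 50.5% of genes.

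C5ar1 was higher in both settings, by 4.02 ± 0.16 in the tumor, at 613, 604, 618 and 614 CPM in TuMon2 and 32.7, 36.6, 49.7 and 31.3 CPM in spleen monocytes. By the test of the difference its rise was larger in culture (difference of changes 1.47 ± 0.21, adjusted p = 1.01e-06). TuMon2 cells were sorted as CD88+, which C5ar1 encodes, and the spleen cells are labelled Ly6C+ alone. A higher level in TuMon2 was therefore favored by the sort itself. Arg1 was at 1267, 1472, 1194 and 2434 CPM in TuMon2 and 1.13, 0.254, 9.23 and 0.619 CPM in spleen monocytes (9.05 ± 0.79), a change that did not differ from that in culture by the test (difference 1.87 ± 1.05, adjusted p = 0.143, and -0.40 without spleen replicate 3, whose level was the highest). For Egln3 the tumor change was 6.08 ± 0.22 and the test did not pass either (adjusted p = 0.0659), though it passed under 6 alternative settings. Mki67 fell in both, by 2.63 on the log2 scale in the tumor. Gpnmb was at 22.8, 35.99, 22.1 and 53.5 CPM in TuMon2 and 3.52, 3.98, 8.24 and 3.10 CPM in spleen monocytes (2.81 ± 0.40), a smaller rise than in culture (difference 8.40 ± 0.59), and the same held for Sqle (tumor change 1.84 ± 0.08, difference 2.18 ± 0.12).

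The unequal change of Spp1 rests on 1 spleen library. It was at 2038, 1941, 2011 and 1648 CPM in TuMon2 and 3.12, 1.82, 20.6 and 1.58 CPM in spleen monocytes (8.08 ± 0.78), and the larger rise in culture (difference 2.58 ± 0.88, adjusted p = 0.0165) fell to 0.88 and did not pass without spleen replicate 3 (adjusted p = 0.385). C1qa, high in the same spleen library (214, 165, 224 and 165 CPM in TuMon2, against 2.32, 3.18, 45.6 and 3.17 CPM in spleen monocytes), kept a larger rise in culture without it (difference 5.04, and 7.30 ± 1.16 with it).

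Several genes went the opposite way in culture and in the tumor. Ly6c2 was at 924, 919, 988 and 964 CPM in TuMon2 and 618, 698, 841 and 632 CPM in spleen monocytes (0.44 ± 0.19), so that its fall in culture had no counterpart (difference -7.46 ± 0.32). Both groups from mice are labelled Ly6C+, which limits how far Ly6c2 could fall between them. Fn1 rose to 11637, 12127, 12306 and 9378 CPM in TuMon2, against 4402, 4312, 3816 and 3875 CPM in spleen monocytes (1.47 ± 0.43; difference -6.52 ± 0.70). Vcan (2.48 ± 0.24; difference -3.71 ± 0.35), Ccr2 (0.60 ± 0.13; -2.97 ± 0.20), Cxcl10 (3.74 ± 0.42; -6.60 ± 0.70, or -7.63 without spleen replicate 3) and Fos (2.96 ± 0.36; -5.67 ± 0.54, or -6.42 without LLC supernatant replicate 3) also rose in the tumor and fell in culture. Il1b, which did not change in culture by the test, was at 5361, 5013, 5846 and 4937 CPM in TuMon2 and 138, 118, 424 and 93.4 CPM in spleen monocytes (4.77 ± 0.37; difference -5.12 ± 0.70, or -5.86 without spleen replicate 3). In the fit of the 10 culture libraries 20 of 42 interferon genes and 6 of 27 immediate early genes rose (10 of 27 without control replicate 2). In the model of 34 libraries, a different fit, 34 of 42 and 23 of 28 rose in the tumor.

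**Figure D5:**
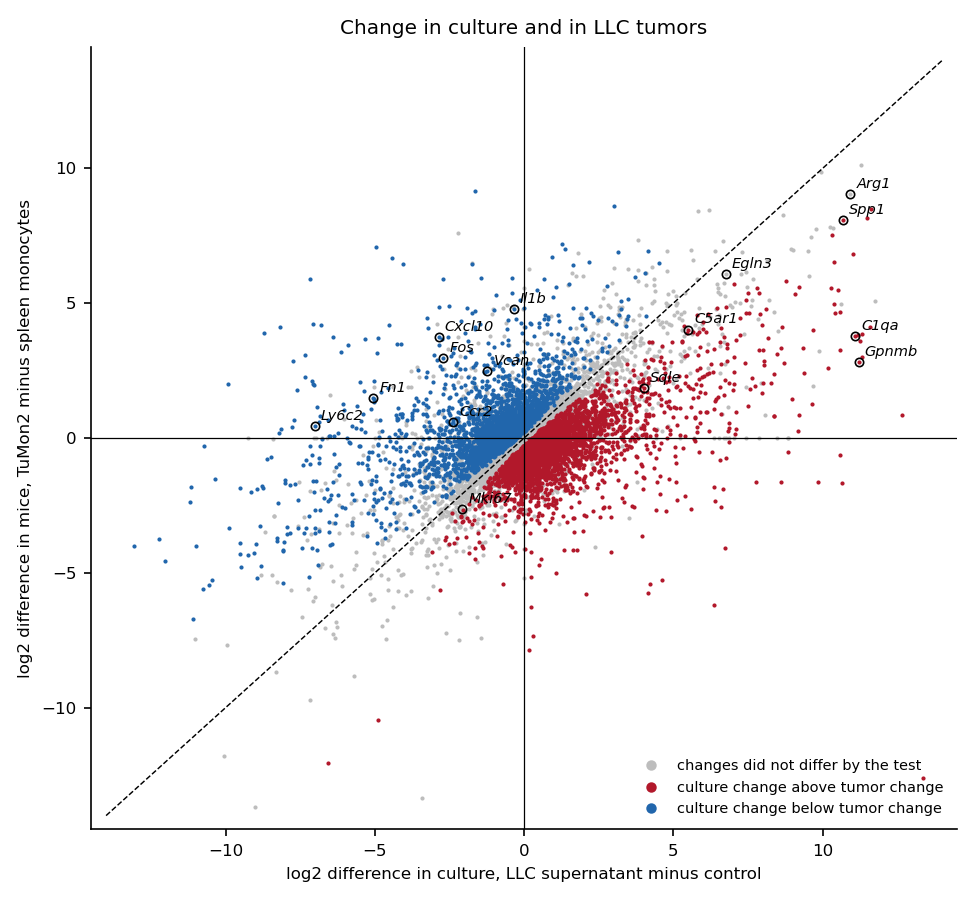
Log2 difference in LLC tumors (TuMon2 minus spleen monocytes) against that in culture (LLC supernatant minus control culture) for 14582 genes in the model of 34 libraries; colored points are genes whose changes differed by the test, and named points are those described in the text. Arg1 and Egln3 lie near the diagonal, Gpnmb and C1qa lie toward the culture axis, and Fn1, Vcan, Cxcl10 and Ly6c2 lie in the quadrant lower in culture and higher in the tumor.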

How the data were processed

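Strand-specific libraries of polyadenylated RNA were made from mouse monocytes, per the labels' protocols. The deposited values are estimated counts of the authors, in 1 table of 34 libraries, and 14.48% of them were not whole. CASAVA 1.8.2 and GRCm38 are named in the submitters' processing notes, while for the aligner, the counter and its strand setting nothing is given in the sources used here, so genes with antisense partners are uncertain. Estimated counts were rounded, which changed a library total by at most 0.000368%, and 24375 of 24475 gene IDs matched a RefSeq symbol. The unmatched IDs held 1.43% of counts.

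Counts of the 10 culture libraries were filtered with filterByExpr, scaled by TMM and tested with edgeR 4.0.16 (quasi-likelihood, robust, R 4.3.3) and Benjamini-Hochberg adjustment at 0.05. The MC38 supernatant libraries share the estimate of spread, so an SE or p-value can reflect variation among them as well as in the 7 libraries compared. CPM are TMM-scaled, log2 differences are LLC supernatant minus control culture with SE, and tests are 2-sided. The SE was derived from the test, as the absolute log2 difference divided by the square root of the F statistic. It is therefore approximate, and for genes with few counts in a group it can be smaller than counting error alone. Culture and tumor changes were compared in a fit of all 34 libraries. No pair of libraries within either group agreed within sampling noise. Alternatives were RLE and upper quartile scaling, other filters, DESeq2 1.42.0, a replicate block, fewer libraries and each library left out. The genes named are the labelled antigens and markers, the 15 largest rises and falls with at least 10 CPM, no overlap and the same call without control replicate 2 (predicted genes passed over), up to 5 members of each list by adjusted p, and members needed to describe a list; a few such genes are not reported here. Members and lists were chosen with earlier results of these data known. Promoters come from RefSeq (GRCm38.p6), and figures were drawn with matplotlib 3.10.9.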

Additional observations from a re-analysis of the deposited data

Results flagged for a closer look

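In groups of 4 libraries a gene was singled out where the highest or lowest library was far from the other 3 by Dixon's criterion. Of 211 gene and group pairs examined 38 met it, where chance gives about 1 in 20. Control culture replicate 2 was the distant library in 30 of them. Control replicate 2 stood highest for Axl at 26.4 CPM against 19.9 to 20.7 CPM in the others, Ccnd1 at 23.9 against 0.472 to 0.842, Folr2 at 0.424 against 0.0732 to 0.121 and Fth1 at 1777 against 449.6 to 464. It was also highest for Gpnmb at 8.70 against 5.82 to 6.24, Hif1a at 192 against 68.4 to 70.5, Itga6 at 118 against 21.0 to 24.5 and Kdr at 10.8 against 0 to 0.0732. The same held for Mmp13 at 3.82 against 0 to 0.0732, Pf4 at 1.202 against 0.366 to 0.472, Pparg at 54.3 against 1.97 to 2.45 and Vegfa at 26.6 against 3.55 to 4.06.

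In 18 of these 30 pairs control replicate 2 was the lowest. It stood lowest for Ass1 at 39.4 CPM against 194 to 207 CPM in the others, B2m at 916 against 1163 to 1195, Camp at 89.2 against 117 to 119.8 and Ccr2 at 1118 against 1408 to 1452. Further low genes were Ctsh at 378 against 458 to 474, Ctss at 775 against 959 to 964, E2f2 at 266 against 322 to 329 and Ebp at 44.97 against 58.7 to 60.6. Lower in it were also Elane at 303 against 378 to 387, Fcnb at 84.5 against 102 to 105, H2-DMa at 106 against 132 to 133 and Hmox1 at 66.2 against 78.4 to 80.7. The low side also held Klf4 at 282 against 371 to 380.3, Ly6c2 at 1520.5 against 1884 to 1887, Mmp27 at 0 against 0.157 to 0.183 and Mmp8 at 167 against 214 to 218. Low as well were Pla2g7 at 49.8 against 64.5 to 67.5 and Plac8 at 689 against 848 to 858. Among other control libraries, replicate 4 was highest for Ly6c1 at 28.5 CPM against 24.0 to 24.8, and replicate 3 for Gdf15 at 0.0402 CPM, from its single count, against 0 in the other 3.

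In mice, TuMon2 replicate 2 was lowest for Cxcl10 at 609 CPM against 749 to 752 CPM. Spleen replicate 3 was highest for Spp1 at 20.6 CPM against 1.58 to 3.12 CPM in the others, C1qa at 45.6 CPM against 2.32 to 3.18 CPM in the others and Arg1 at 9.23 CPM against 0.254 to 1.13 CPM in the others. The same library was highest for Cxcl10 at 135 CPM against 22.1 to 32.2 CPM in the others and Il1b at 424 CPM against 93.4 to 138 CPM in the others. What these libraries share beyond the genes named was not tested.

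The change in culture differed from the change in LLC tumors by the test of the difference itself for 12 of 15 genes given with both, against 50.5% of all 14582 genes. These 15 genes were chosen with earlier results known, so their count is not a rate. Values are on the log2 scale as culture change minus tumor change. The change was larger in culture for Gpnmb (8.40), C1qa (7.30), Spp1 (2.58), Sqle (2.18) and C5ar1 (1.47). For Spp1 the same test did not pass without spleen replicate 3 (0.88, adjusted p = 0.385) or with the replicate block (adjusted p = 0.055). The change was lower in culture for Ly6c2 (-7.46), Cxcl10 (-6.60), Fn1 (-6.52), Fos (-5.67), Il1b (-5.12), Vcan (-3.71) and Ccr2 (-2.97). The cultured cells came from bone marrow and the compared cells in mice from tumor and spleen, so setting and source of the cells cannot be told apart. The tumor changes of C5ar1 and Ly6c2 also depend on the sort, as TuMon2 cells were sorted as Ly6C+ CD88+ and spleen cells are labelled Ly6C+.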

How the results depend on the processing

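The numbers of genes that rose, fell or changed stayed within 1.5 times of those reported under every alternative run. Genes changed numbered 8615, with 8619 under RLE scaling, 8679 under upper quartile scaling, 8207 without a filter, 7668 with the stricter filter, 8694 by DESeq2, 8785 in the fit of the 7 libraries alone and 10133 without control replicate 2 and MC38 supernatant replicate 3, and from 7616 to 9244 with each library left out in turn. Without a library in turn, 3638 to 4423 rose, 3964 to 4821 fell, 3708 to 4169 changed at least 2-fold, and 6851 to 7384 changed unequally in culture and in tumors (7361 with all). Which direction held the larger share turned in the fit of the 7 libraries alone, where 54.0% of changed genes were higher, against 47.2%, and the median of all genes was 0.066 in place of -0.069. Over 181 named genes, 2664 of 2699 gene results kept their side of the threshold without a counted change of direction, 23 missed it, 9 newly passed it and 3 turned round. A change of direction was counted only where at least 1 of the fits passed, so Cst7, from -0.09 to 0.102 without passing, is among those kept. Of those that turned round, Pparg ran from -0.90 to 2.26 with each library left out in turn, the highest without control replicate 2, and was at 2.26 without that library and MC38 supernatant replicate 3, and Hk2 was at 0.13 in the fit of the 7 libraries alone. The cause was not tested beyond the levels of control replicate 2. Of 1590 counts of list members under alternatives 1491 were within 1.5 times, and the genes of ATF4 and the unfolded protein response that rose numbered 12 without control replicate 2, against 8.

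Same-numbered libraries did not deviate together (r = -0.0598, -0.0535 and -0.0169 across genes, which are not independent). Libraries with different numbers had r from -0.0287 to 0.0522. With so few libraries and all values this small, the check cannot tell whether the numbers pair them. With the replicate block 7920 genes changed, 3763 higher and 4157 lower, 3779 at least 2-fold, and 7027 changed unequally; Ccnd1 (adjusted p = 0.0556), Apoc2 (0.0986), Pros1 (0.0782) and the unequal change of Spp1 (0.055) missed the threshold, and Ly6a passed it (0.00542). Depth limits genes without counts in a group, for which bounds are given, and genes with 1 or 2 counts, for which a ratio with its counting interval or the levels are given.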

Other observations

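Receptors for antibodies and for adhesion changed in both directions. Of 9 genes of Fc receptors and their signaling chains 5 rose and 2 fell (median log2 difference 0.68, against -0.07 over all genes, of which 32.3% rose and 36.1% fell). Fcgr4, an activating receptor of nonclassical monocytes and macrophages, was at 152, 146 and 147 CPM after LLC supernatant and at 6.40, 3.96, 5.19 and 5.25 CPM in control cells (4.81 ± 0.14), and the inhibitory Fcgr2b at 666, 656 and 634 against 155, 122, 141 and 134 CPM (2.24 ± 0.09). The adaptor Tyrobp, which passes on signals of Trem2, fell (-0.63 ± 0.09). Of 21 integrins and adhesion receptors 10 rose and 9 fell (median 0.51). Itgb5 and Itgav, which pair as a receptor of vitronectin, rose (2.67 ± 0.07 and 1.42 ± 0.08), and Itga6, a laminin receptor chain, was at 432, 428 and 416 CPM after LLC supernatant and at 21.0, 118, 24.5 and 24.4 CPM in control cells (3.20 ± 0.63, or 4.19 without control replicate 2). Itgb7 (-2.17 ± 0.09) and Itga4 (-2.05 ± 0.15), whose dimer binds the gut vessel addressin, fell together.

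The MS4A membrane genes and lipid mediators moved apart by member. Of 9 MS4A genes 3 rose and 6 fell (median -1.99). Ms4a7, a macrophage marker, was at 249.8, 237 and 239 CPM after LLC supernatant and at 1.79, 2.12, 1.21 and 1.36 CPM in control cells (7.24 ± 0.15), while Ms4a8a was at 0.0865, 0.158 and 0.213 CPM after LLC supernatant and at 60.8, 51.8, 57.8 and 59.7 CPM in control cells (-8.503 ± 0.18). Of 22 genes of prostaglandins and leukotrienes 9 rose and 10 fell (median -0.31). Hpgds, which makes prostaglandin D2, was at 115, 121 and 125 CPM after LLC supernatant and at 0.256, 0.212, 0.483 and 0.892 CPM in control cells (8.02 ± 0.36), and Hpgd, which inactivates prostaglandins, at 0.346, 0.396 and 0.342 against 46.3, 65.8, 50.1 and 54.1 CPM (-7.20 ± 1.01). Pla2g7, the secreted phospholipase that breaks down platelet-activating factor, rose (3.25 ± 0.10).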
